A study of Rattus norvegicus with 19 samples.

Results

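Potassium channel genes were followed through every array of a rat study of blood-brain barrier opening, serum albumin and TGF-β1. The genes were all those whose symbol on the array's annotation starts with Kcn, which covers pore-forming subunits and their auxiliary proteins, except the glial inward rectifiers Kcnj10 and Kcnj16. They numbered 73 of 14218 named genes. Each gene was read by its probe set with the highest mean, and 123 probe sets named them in all. A gene was tested in a set of arrays where its log2 signal was above 4 on at least 2 arrays of that set, which left 41 genes tested in each set, of which 38 were shared.

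All animals were adult male Wistar rats, and RNA came from the somatosensory cortex, which in treated animals had been perfused with artificial cerebrospinal fluid carrying an agent. Set 1 held 10 arrays, each of 1 animal. They covered sodium deoxycholate (DOC, 2 mM, a bile salt used to open the blood-brain barrier) at 7, 24 and 48 h, bovine serum albumin (0.1 mM, 25% of its serum concentration) at 8, 24 and 48 h, TGF-β1 (10 ng/ml) at 8, 24 and 48 h, and 1 sham-operated rat at 24 h. Set 2 held 9 arrays, all at 24 h: sham operation (n = 2), albumin at 0.1 mM (n = 3), and albumin together with blockers of TGF-β receptors (n = 4), namely an antibody against TGF-β receptor 2 at 50 µg/ml and SB431542, an inhibitor of the receptor 1 kinase, at 100 µM. The albumin dose beside the blockers was not given in the labels.

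Potassium channels let potassium leave the cell along its gradient, which sets the resting potential, ends action potentials and spaces them in time. Voltage-gated Kv subunits open on depolarisation, inward rectifiers hold the membrane near rest or answer G proteins and ATP, two-pore channels carry leak current, and auxiliary subunits change the number, position or gating of the pores. In the cortex most of them are expressed in neurons, with different sets in fast-spiking interneurons and pyramidal cells, while ATP-sensitive channels also serve vascular smooth muscle and pericytes.

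Among the Kv1 to Kv4 pore subunits, 13 genes were on the array, of which 10 were tested in set 1 and 9 in set 2. The corresponding numbers were 7, 5 and 4 for silent Kv subunits, which form no channel alone, 11, 5 and 6 for the Kv7, EAG and ERG families, and 13, 9 and 9 for auxiliary subunits. For inward rectifiers they were 13, 6 and 7, for two-pore channels 11, 3 and 3, and for calcium- and sodium-activated channels 5, 3 and 3. Another 29 genes were tested in neither set, and 27 of these were not above 4 on any of the 19 arrays. The other two, Kcne2 and Kcnk6, exceeded it on 1 array each, with highest values of 4.07 and 4.55. Those below 4 throughout included Kcna3, Kcna5, Kcnj2, Kcnj13, Kcnk3, Kcnk9, Kcnn3, Kcnn4 and Kcnq1. A value under that level is a limit of this measurement, since a poor probe set and an unexpressed gene give the same reading.

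The tissue carried neuronal RNA throughout, and all 12 neuronal markers (such as Rbfox3 and Snap25) were tested in both sets. Array medians ran from 5.09 to 5.17 in set 1 and from 6.05 to 6.18 in set 2, so that differences were taken within a set only. Albumin replicate 2 of set 2 stood apart, as its median correlation with the rest of the set was 0.977, against 0.990 to 0.995 for every other array. It held the lowest value of the 9 arrays for 22 of the 41 potassium channel genes and the highest for 6, while for all 10330 genes tested it was lowest for 31.5% and highest for 30.2%. Medians, counts and fitted differences that move by over 1.5 times without it are also given without it. The labels and design name separate animals, and precision is limited by how few arrays there are.

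Upstream sequence was available for 50 of the 73 genes in the RefSeq table of assembly GRCr8. In the 250 bases before the start, the GC box (GGGCGG on either strand) occurred in 28 of the 50, or 56.0%, against 30.5% of 33469 promoters of the same length, and the median GC content was 63.4% against 51.2%. The SMAD box (CAGAC on either strand), the short element that SMAD proteins of the TGF-β pathway can bind, occurred in 19 of 50 (38.0%) against 42.9%, a share below that of all promoters. No upstream region held the cyclic AMP response element TGACGTCA, which 1.59% of all promoters had. The AP-1 motif TGANTCA occurred in 1, Kcne1, against 6.34% of promoters. The TATA motif TATAAA occurred in 2 (4.0%) against 12.9%, and the E-box CACGTG in 2 (4.0%) against 5.59%. No motif contains another, each was sought on both strands, and a match describes the letters alone. Each potassium channel gene entered with 1 promoter. The 33469 were all promoters of that length in the table and were not limited to genes on the array. The regions printed here belong to genes on which the later results turn: Kcnip1, which passed the test after albumin; Kcnj8, the gene with the smallest p among those higher after albumin; and Kcnk4, which passed the test over time. Capitals mark GC boxes and SMAD boxes of either strand, the sequence reads 5′ to 3′ on the gene's strand, and positions count back from the start. Kcnip1 lies on the minus strand with its upstream region at chr10:19093026-19093275 and held no searched motif. Kcnj8, also on the minus strand at chr4:177246549-177246798, had 1 GC box at -123. Kcnk4, on the minus strand at chr1:213555862-213556111, had a GC box at -25 and a pair of SMAD boxes farther upstream.
Kcnip1: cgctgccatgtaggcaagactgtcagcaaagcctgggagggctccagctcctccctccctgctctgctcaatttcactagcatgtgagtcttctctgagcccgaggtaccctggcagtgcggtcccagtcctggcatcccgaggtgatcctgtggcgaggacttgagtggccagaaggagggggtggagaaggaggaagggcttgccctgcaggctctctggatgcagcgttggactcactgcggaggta
Kcnj8: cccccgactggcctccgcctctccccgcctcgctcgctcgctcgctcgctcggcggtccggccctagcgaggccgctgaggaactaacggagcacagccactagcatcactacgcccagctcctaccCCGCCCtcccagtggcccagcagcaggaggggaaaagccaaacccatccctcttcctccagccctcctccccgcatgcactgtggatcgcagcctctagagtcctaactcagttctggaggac
Kcnk4: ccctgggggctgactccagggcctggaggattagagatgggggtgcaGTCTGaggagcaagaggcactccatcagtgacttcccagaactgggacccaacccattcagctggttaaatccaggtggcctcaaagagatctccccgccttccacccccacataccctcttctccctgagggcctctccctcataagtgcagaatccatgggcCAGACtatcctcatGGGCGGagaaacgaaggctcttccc

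The first comparison asked what albumin alone did to cortex within 24 h, in set 2. Kcnip1 fell, and it was the 1 of 41 potassium channel genes that passed the test, beside 1.33% of all genes (limma, Benjamini-Hochberg adjusted p under 0.05). Of the 41, 28 were lower and 13 higher after albumin, beside 47.7% lower among all genes. Their median difference was −0.33 on the log2 scale, beside 0.02 for all genes, and −0.16 without albumin replicate 2. RNA of whole tissue cannot tell fewer cells of a type from less RNA per cell. At an unadjusted p under 0.05, 7 were lower and 1 higher, beside 8.38% and 13.0% of all genes. Without overlap between the groups' arrays, 15 of the 41 (36.6%) were lower, against 19.2% of all genes, and 3 (7.32%) were higher, against 22.2%. With albumin replicate 2 left out, 20 were lower without overlap, against 25.0% of all genes, and 6 were higher, against 28.1%.

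Kcnip1 encodes KChIP1, a calcium-binding protein that attaches to Kv4 channels, brings more of them to the membrane and is prominent in interneurons. Its log2 signal was 9.64 and 10.12 in the sham rats, and 9.12, 8.81 and 9.07 in the albumin rats. The albumin arrays all lay below both shams. The difference was −0.88 ± 0.16 (SE, adjusted p = 0.0488), and it lay close to the threshold: when any 1 of the 9 arrays was left out, the adjusted p rose to between 0.0544 and 0.246. Another probe set for Kcnip1 above the floor had a mean of 7.43 with albumin and 7.80 in sham, the same direction and a smaller difference.

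None of its relatives passed the test. Kcnip4, another KChIP, gave 11.65 and 11.78 in sham and 11.48, 10.32 and 11.55 with albumin, and Kcnip3 gave 10.65 and 10.55 against 10.22, 10.10 and 10.51. In both genes every albumin array was below sham, though for Kcnip4 most of the difference lay in albumin replicate 2. Kcnip2, also a KChIP, gave 10.23 and 10.06 in sham and 9.63, 10.06 and 9.67 with albumin, where the groups overlapped. The Kv4 pore subunit Kcnd2, whose A-type current these proteins shape, read 10.27 and 10.06 in sham and 10.02, 8.75 and 9.99 with albumin. Nearly all of that difference lay in albumin replicate 2, whereas Kcnip1 was lower on all 3 arrays by similar amounts.

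**Figure D1:**
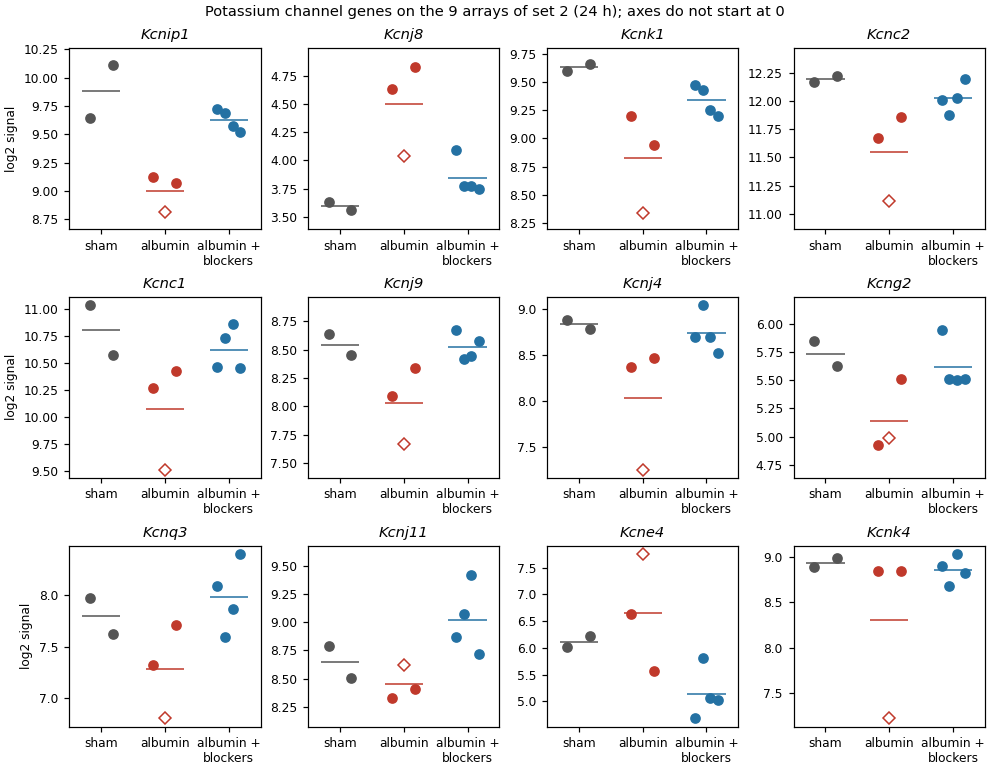
Log2 signal of 12 potassium channel genes on the 9 arrays of set 2 at 24 h (points are arrays, lines are group means, the open diamond is albumin replicate 2). For Kcnip1 the 3 albumin arrays lie below both shams and all 4 arrays with blockers; for Kcnk4, the low albumin mean comes from the array at 7.22 alone.

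The Kv3 subunits Kcnc1 and Kcnc2 form the fast channels with which interneurons repolarise between closely spaced spikes. Kcnc2 had 12.16 and 12.22 in sham and 11.67, 11.12 and 11.86 with albumin, and Kcnc1 had 11.03 and 10.57 against 10.27, 9.51 and 10.43. Albumin arrays were below both shams in each gene, with replicate 2 lowest. The differences were −0.64 ± 0.21 for Kcnc2 (adjusted p = 0.138) and −0.73 ± 0.28 for Kcnc1 (adjusted p = 0.19), and neither passed. Without replicate 2 they were −0.43 and −0.46. All 5 probe sets of Kcnc2 above the floor were lower with albumin. The interneuron markers, with 8 of 10 tested and Calb2 at background, differed from the sham mean by −0.18, 0.20 and −0.19 on the 3 albumin arrays, so they were lower on replicates 1 and 3 and higher on replicate 2, where Kcnc1 and Kcnc2 were lowest. The part of these markers in the Kcnip1 and Kcnc differences was not tested.

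Two-pore channels carry leak current. Kcnk1, TWIK-1, had 9.60 and 9.66 in sham against 9.20, 8.34 and 8.94 with albumin, a difference of −0.80 ± 0.23 (adjusted p = 0.109). No albumin array reached the sham range. Kcnk4, the mechanosensitive channel TRAAK, had 8.88 and 8.99 in sham and 8.84, 7.22 and 8.84 with albumin, so that replicate 2 alone was far below, while Kcnk2, TREK-1, read 10.28 and 10.38 against 10.51, 10.15 and 10.71 with overlapping groups.

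Inward rectifiers divided. Kcnj9, the GIRK3 subunit of channels opened by G proteins, gave 8.64 and 8.45 in sham and 8.09, 7.66 and 8.34 with albumin (−0.51 ± 0.19, adjusted p = 0.179). Kcnj4, the strong rectifier Kir2.3, gave 8.87 and 8.78 against 8.37, 7.25 and 8.47 (−0.80 ± 0.34, adjusted p = 0.224). Kcnj3, the GIRK1 subunit, read 7.92 and 7.92 in sham and 7.23, 6.78 and 7.76 with albumin. Without replicate 2 the differences were −0.33 for Kcnj9 and −0.41 for Kcnj4. These 3 genes were below both shams on every albumin array, whereas Kcnj6, GIRK2, was above both shams by a small margin, at 10.77, 11.00 and 10.80 against 10.66 and 10.67.

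Kcnj8 encodes the pore of the ATP-sensitive channel of vascular smooth muscle and pericytes. Its signal was 3.63 and 3.56 in sham, under the floor of 4 used for testing, and 4.63, 4.04 and 4.83 with albumin. It passed the filter through the albumin arrays and 1 array with blockers, so its being higher with albumin is in part a condition of its being tested. The difference was 0.90 ± 0.22 (adjusted p = 0.0797), and 1.13 with adjusted p = 0.0314 when albumin replicate 2 was left out. Of 10 endothelial and pericyte markers, 9 were tested and Anpep was at background. Their mean per array was 8.50 to 8.68 in sham and 8.64 to 8.77 with albumin, ranges that overlap, and their part in the Kcnj8 value was not tested.

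The remaining families gave smaller or more scattered values. Kcng2, a silent subunit that joins Kv2 channels, read 5.84 and 5.63 in sham and 4.93, 4.99 and 5.51 with albumin (−0.59 ± 0.21, adjusted p = 0.167). The M-current subunit Kcnq3 read 7.97 and 7.62 against 7.32, 6.80 and 7.71, where the highest albumin array exceeded the lower sham, and Kcnq5 read 12.38 on both shams against 12.24, 11.31 and 12.27. All 4 silent subunits and 5 of 6 genes of the Kv7, EAG and ERG families had lower means with albumin, against 1 of 3 calcium- and sodium-activated genes (median 0.04). Kcns1 read 8.52, 6.84 and 8.70 against 8.69 and 8.48 in sham, and Kcnv1 10.90, 9.64 and 11.30 against 10.93 and 11.13. Both silent subunits were thus well below sham on replicate 2 alone. Kcnma1, a calcium-activated gene, read 9.53, 10.23 and 9.75 against 9.49 and 9.96, so its higher mean also rested on replicate 2. The counts for silent subunits and for calcium- and sodium-activated genes thus depend on that array. Kcna6, a Kv1 pore subunit, was the third gene above both shams on every albumin array, at 9.42, 9.78 and 9.38 against 9.27 and 8.97. Kcnab1, the β subunit that gives Kv1 channels fast inactivation, stood at 12.98 on albumin replicate 2 and at 11.21 and 11.38 on the other albumin arrays, with shams at 11.53 and 11.70.

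Some marker lists of other cell types moved with the same groups, and others did not. The meningeal list, with 9 of 10 genes tested and Slc22a6 at background, had means of 8.79 and 8.96 in sham and 5.81 to 7.05 with albumin. Astrocyte markers, with 9 of 10 tested, had means of 12.27 to 12.37 in sham and 11.33 to 12.09 with albumin. Microglia and macrophage markers, with 11 of 12 tested and Cd68 at background, spanned 7.11 to 8.34 in sham and 8.37 to 8.57 with albumin. The neutrophil and lymphocyte list, with 3 of 8 genes tested and Cxcr2, Cd3d and Cd3e at background, had means of 5.81 and 6.95 in sham and 8.13 to 11.49 with albumin. Oligodendrocyte and precursor markers overlapped, with 11.28 to 11.30 in sham and 10.87 to 11.34 with albumin. Striatal markers overlapped too, with 8.00 to 8.24 and 8.01 to 8.47. The 1 choroid plexus marker tested ran from 4.71 to 8.42 in sham, so the shams differed widely in it, and from 4.92 to 5.15 with albumin. Neuronal markers relative to sham had means of 0.10, −0.40 and 0.02 on the 3 albumin arrays, while the potassium channel genes had medians of −0.13, −0.47 and −0.14. Neuronal markers were therefore low on replicate 2 alone, and the potassium channel medians were below 0 on all 3. The part of cell composition or dissection in these values was not tested.

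**Figure D2:**
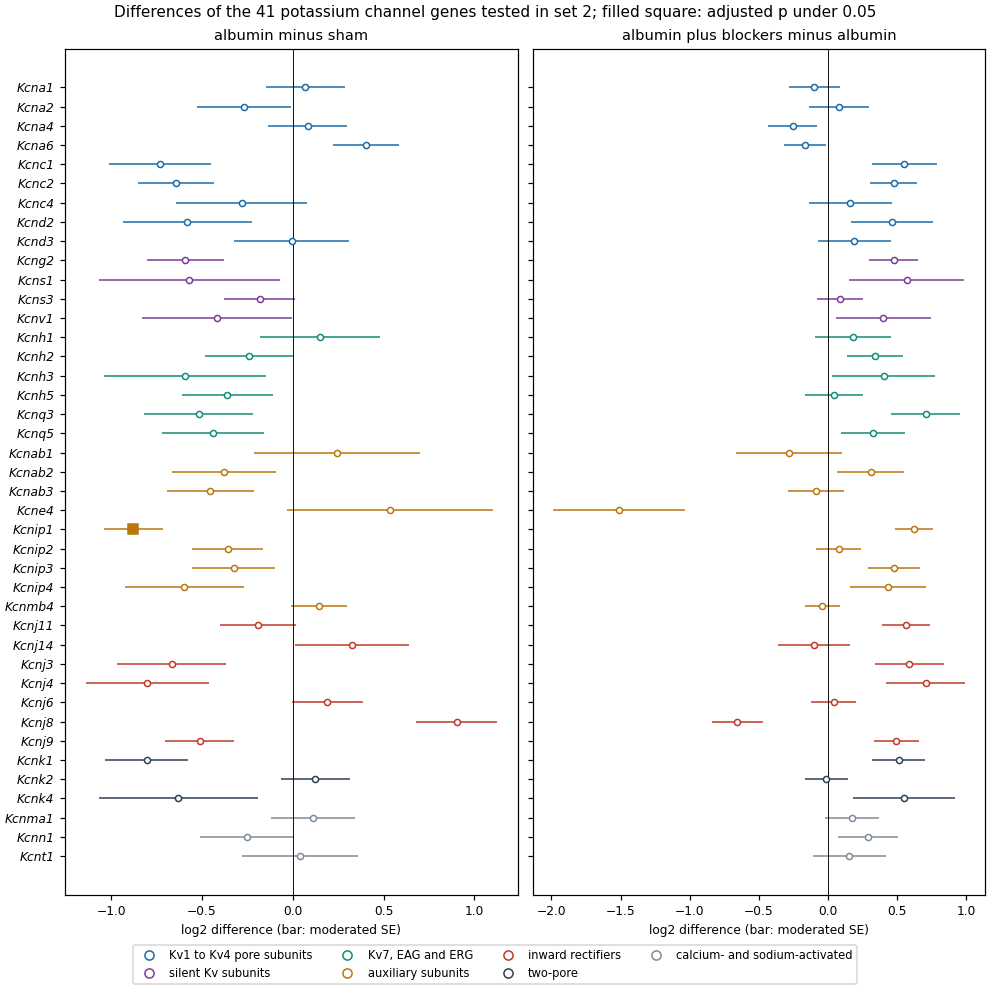
Log2 differences with moderated SE for the 41 potassium channel genes tested in set 2, by family, for albumin minus sham (left) and albumin plus blockers minus albumin (right). Kcnip1 at −0.88 is the filled square on the left; on the right no gene passed, and 31 of 41 lie above 0. Both panels use the same 3 albumin arrays.

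The second comparison asked how much of the albumin state was present when TGF-β receptors were blocked. None of the 41 genes passed, beside 0.0194% of all genes. At an unadjusted p under 0.05, 11 were higher with blockers and 2 lower, beside 7.56% and 9.04% of all genes. In all, 31 of 41 were higher (median 0.29, and 0.11 without albumin replicate 2), and among all genes 50.6% were lower. This comparison uses the same albumin arrays as the previous one, so a gene low on those arrays is lower there in both, and the values are set side by side with no test between them.

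Kcnip1 read 9.72, 9.69, 9.57 and 9.52 with blockers, all above the albumin arrays. The first pair of these lay between the shams and the other two between the highest albumin array and the lower sham. The difference from albumin was 0.63 ± 0.14 (adjusted p = 0.121), beside −0.88 for albumin against sham. Kcnc2 had 12.01, 11.87, 12.03 and 12.20 (0.48 ± 0.17, adjusted p = 0.251), Kcnc1 10.46, 10.73, 10.86 and 10.45 (0.55 ± 0.23, adjusted p = 0.292), and for both genes each array with blockers exceeded each albumin array. Without albumin replicate 2 these differences were 0.26 for Kcnc2 and 0.28 for Kcnc1.

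Among inward rectifiers, Kcnj11, the ATP-sensitive pore of neurons, had 8.87, 9.07, 9.42 and 8.72 with blockers against 8.33, 8.62 and 8.41 with albumin (0.56 ± 0.17, adjusted p = 0.20). Its shams stood at 8.79 and 8.50, so that the blockers group reached above sham. Kcnj9 (8.67, 8.42, 8.44 and 8.58; 0.50 ± 0.16, adjusted p = 0.214) and Kcnj4 (8.69, 9.04, 8.69 and 8.52; 0.71 ± 0.28, adjusted p = 0.274) were likewise above every albumin array, with 0.31 and 0.32 when albumin replicate 2 was left out. Together with Kcnip1, Kcnc1, Kcnc2 and Kcnj11 they made 6 of 41 genes (14.6%) higher without overlap, against 7.32% of all genes, and none was lower, against 8.71%. Without albumin replicate 2 the counts were 8 higher, against 11.0%, and 1 lower, against 12.1%.

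Kcnj8 was at 4.09, 3.78, 3.77 and 3.74 with blockers (−0.65 ± 0.19, adjusted p = 0.189), and only its first array reached the lowest albumin array. Since it was tested mainly through the albumin arrays, its being lower with blockers is in part a condition of its being tested. Kcne4, a single-pass subunit that suppresses some Kv channels, spread widely, with 6.64, 7.76 and 5.57 for albumin and 4.68, 5.81, 5.06 and 5.03 with blockers (−1.51 ± 0.48, adjusted p = 0.204). The shams of Kcne4 were at 6.01 and 6.23, inside the albumin range. Kcnq3 gave 8.08, 7.59, 7.87 and 8.40 (0.71 ± 0.25, adjusted p = 0.247) and Kcnk1 9.47, 9.43, 9.25 and 9.20 (0.51 ± 0.19, adjusted p = 0.258); in each, the groups overlapped slightly. Without albumin replicate 2 the differences were −0.96 for Kcne4, 0.47 for Kcnq3 and 0.27 for Kcnk1. Kcng2 (0.48 ± 0.18), Kcnip3 (0.48 ± 0.19) and Kcnj3 were the other genes with an unadjusted p under 0.05.

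The third comparison set the group with blockers against sham. None of 41 passed, as for all genes (0 of 10330, while 444 had an unadjusted p under 0.05). Kcnab3, a Kvβ subunit, was the 1 potassium channel gene below that level and lower, beside 1.5% of all genes, at 7.38, 7.35, 7.70 and 6.84 against 7.99 and 7.72 (−0.54 ± 0.23, adjusted p = 0.9999). Of the 41, 25 were lower (median −0.07), beside 45.4% of all genes. Without overlap 4 were lower, against 8.32% of all genes, namely Kcnab3, Kcne4, Kcnip4 and Kcnk1. Among these, Kcne4 had means of 5.15 with blockers and 6.12 in sham, a wider gap than that of Kcnab3. Only Kcnj8 was higher without overlap, against 11.6% of all genes. Both of its shams and all but its first array with blockers were under the floor of 4. It was tested mainly through the albumin arrays, so this difference lay mostly under the level used for testing. The medians of the 4 arrays relative to sham ran from −0.08 to −0.03. Meningeal markers on these arrays had means of 7.44 to 8.57, also between albumin and sham. Astrocyte markers had 12.24 to 12.38 with blockers, above every albumin array and overlapping the shams, and the neutrophil and lymphocyte list had 6.69 to 9.21, overlapping both. The part of these cells in the comparisons with blockers was not tested.

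Set 1 asked how 3 agents act over time, with 1 array for each agent and time and 1 sham. No potassium channel gene passed in DOC, albumin or TGF-β1 against that sham, beside 0.469%, 0.369% and 0.0% of all genes. For TGF-β1, 0 of 10019 genes passed, and 750 had an unadjusted p under 0.05. At that level 10, 5 and 2 of the 41 genes stood out for DOC, albumin and TGF-β1, of which 8, 5 and 2 were lower, beside 10.6%, 5.52% and 2.56% of all genes lower; the 2 higher after DOC stood beside 8.07%. The medians were −0.27, −0.14 and −0.15, with 26, 26 and 30 of 41 genes lower, beside 52.8%, 52.0% and 47.4% of all genes. The albumin median was −0.24 without the albumin array at 48 h. With all 19 arrays and a set term the albumin and TGF-β1 medians were −0.29 and −0.28. That fit adds the albumin and sham arrays of set 2 to those of set 1, so these medians are not results of set 1 alone. All 3 agents were set against the same array, so an odd value on that sham enters each of them.

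On all 9 treated arrays, 10 of the 41 genes (24.4%) were lower than on the sham, against 12.2% of all genes, and none was higher, against 11.2%. The 10 were Kcnc1, Kcnc2, Kcnc4, Kcnip2, Kcnip4, Kcnj3, Kcnj9, Kcnk4, Kcnq5 and Kcns3. The first 3 of these are Kv3 subunits, and the list also holds a pair of KChIPs and a pair of GIRK subunits. For Kcnc2, each of its 4 probe sets above the floor was highest on the sham. Interneuron markers, with 9 of 10 tested, were also below the sham on every treated array, from −0.36 to −0.09. The 12 neuronal markers were below it on every treated array too, from −0.39 to −0.01. The part of these cells in the lower values of the 10 genes was not tested.

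**Figure D3:**
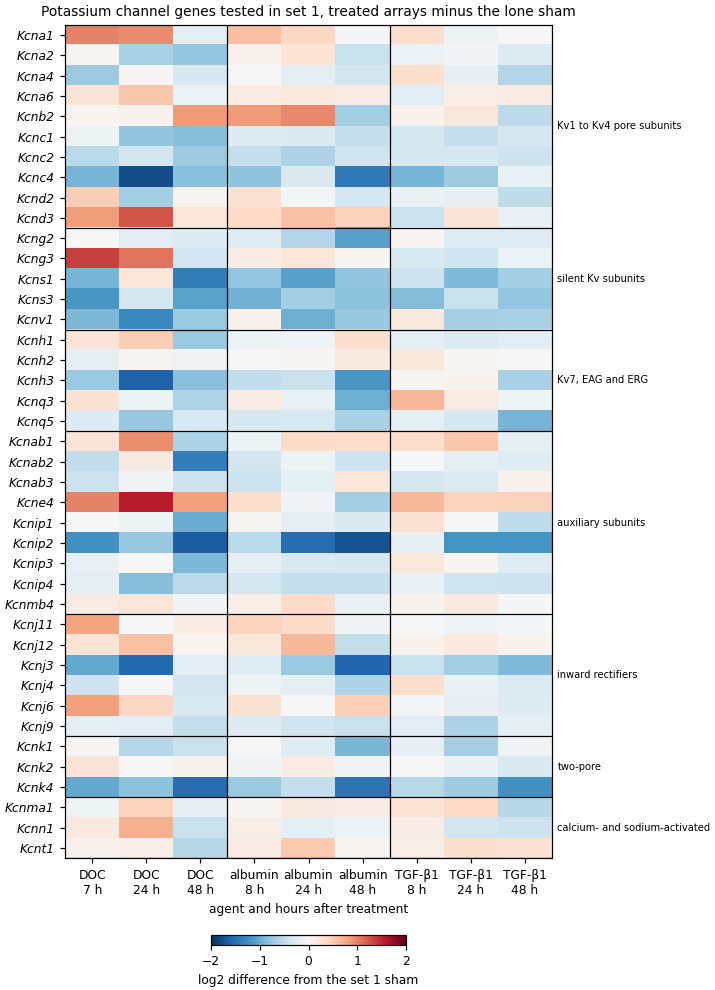
Log2 difference of each treated array of set 1 from the lone sham for the 41 potassium channel genes tested, by family; blue is lower, red higher. The 48 h columns hold the most blue: 34, 31 and 34 of 41 genes were below sham there for DOC, albumin and TGF-β1. The share of all genes below sham was not counted by array. The median differences of all genes tested on these 48 h arrays were −0.01, −0.01 and 0.02.

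Kcnk4 had the smallest p for every agent. Its sham was at 8.64, DOC arrays at 7.62, 7.82 and 7.11 for 7, 24 and 48 h, albumin arrays at 7.90, 8.17 and 7.17, and TGF-β1 arrays at 8.09, 7.93 and 7.43. Every treated array was lower, and the nearest to sham was albumin at 24 h. The differences were −1.13 ± 0.19 for DOC (adjusted p = 0.0652), −0.90 ± 0.19 for albumin (adjusted p = 0.126) and −0.83 ± 0.19 for TGF-β1 (adjusted p = 0.292).

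Kcns3, a silent subunit that joins Kv2 channels and is known from fast-spiking interneurons, had 9.12 on the sham and 7.96, 8.78 and 8.05 after DOC, 8.16, 8.45 and 8.30 after albumin, and 8.25, 8.67 and 8.35 after TGF-β1. All were lower, least so at 24 h for every agent. The differences were −0.86 ± 0.21 (adjusted p = 0.117), −0.81 ± 0.21 (adjusted p = 0.186) and −0.70 ± 0.21 (adjusted p = 0.404). In set 2, Kcns3 had 9.45 and 9.71 in sham and 9.27, 9.48 and 9.44 with albumin, where the groups overlapped.

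Kcnip2, a KChIP of Kv4 channels known from heart and brain, had 9.57 on the sham. It read 8.36, 8.81 and 7.93 after DOC (−1.20 ± 0.40, adjusted p = 0.188), 9.03, 8.04 and 7.83 after albumin (−1.27 ± 0.40, adjusted p = 0.277), and 9.40, 8.38 and 8.37 after TGF-β1. The early albumin and TGF-β1 arrays were nearest to sham. Kcnc2 had 11.21 on the sham and 10.49 to 10.90 on the treated arrays (−0.54 ± 0.19 for DOC, adjusted p = 0.207, and −0.50 ± 0.19 for albumin, adjusted p = 0.383).

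After DOC, Kcne4 was above sham at every time, with 5.72, 6.30 and 5.55 against 4.73 (1.13 ± 0.33, adjusted p = 0.152). The A-type pore Kcnd3 had 8.51, 8.93 and 7.91 against 7.67 (0.78 ± 0.29, adjusted p = 0.221). Lower were Kcnv1, a silent subunit, with 9.83, 9.44 and 9.99 against 10.73 (−0.98 ± 0.29, adjusted p = 0.163), and Kcnh3, of the EAG superfamily, with 7.73, 6.86 and 7.64 against 8.48 (−1.07 ± 0.41, adjusted p = 0.235). Kcnip4 (−0.53 ± 0.19, adjusted p = 0.217) and Kcnc1 (−0.58 ± 0.24, adjusted p = 0.265) were the others under an unadjusted 0.05. After albumin, Kcng2 had 4.73, 4.38 and 3.87 against 4.96 (−0.64 ± 0.22, adjusted p = 0.307), its lowest value under the floor.

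Times were compared among the 9 treated arrays. From 7 or 8 h to 48 h, Kcnq3 and Kcnk4 fell, 2 of 41 genes beside 5.09% of all genes, and 36 of 41 were lower at 48 h, beside 48.2% of all genes. Their median was −0.36, beside 0.01 for all genes tested. On all 3 arrays at 48 h, 11 genes (26.8%) were lower than on any early array, against 9.22% of all genes, and none was higher, against 14.8%. Within each agent, 19 of 41 (46.3%) were lower at 48 h in all 3, against 19.8%, and Kcns3 alone was higher in all 3, against 25.4%.

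Kcnq3 encodes Kv7.3, a subunit of the M-channel that holds back repetitive firing. It read 6.70, 6.32 and 5.82 after DOC, 6.57, 6.28 and 5.44 after albumin, and 7.08, 6.58 and 6.33 after TGF-β1, at 7 or 8, 24 and 48 h. The sham at 24 h was 6.42. Every agent's series went down at both steps, and the early arrays lay above the sham. The difference of 48 h from the early time was −0.92 ± 0.14 (adjusted p = 0.015); it no longer passed when any 1 of the 3 early arrays was left out (adjusted p 0.0756 to 0.0795). The other probe set for Kcnq3 was under the floor in both sets.

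Kcnk4 was higher at 24 h than early after DOC and albumin, slightly lower after TGF-β1, and lowest at 48 h for every agent. The difference was −0.63 ± 0.14 from the early time (adjusted p = 0.0498) and −0.73 ± 0.14 from 24 h (adjusted p = 0.064). The call at 48 h against the early time was lost when any 1 of the 9 arrays was left out (adjusted p 0.0597 to 0.207). Kcnip1 read 8.58, 8.49 and 7.60 after DOC, 8.64, 8.41 and 8.30 after albumin, and 8.89, 8.59 and 8.08 after TGF-β1, and was lower at each step in each agent. Its difference of −0.71 ± 0.17 missed the threshold (adjusted p = 0.0627), and passed it without the albumin array at 48 h (−0.90, adjusted p = 0.0347). Kcnip1 and Kcnq3 were the 2 of 41 genes lower at both steps in all 3 agents (4.88%), against 1.82% of all genes.

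**Figure D4:**
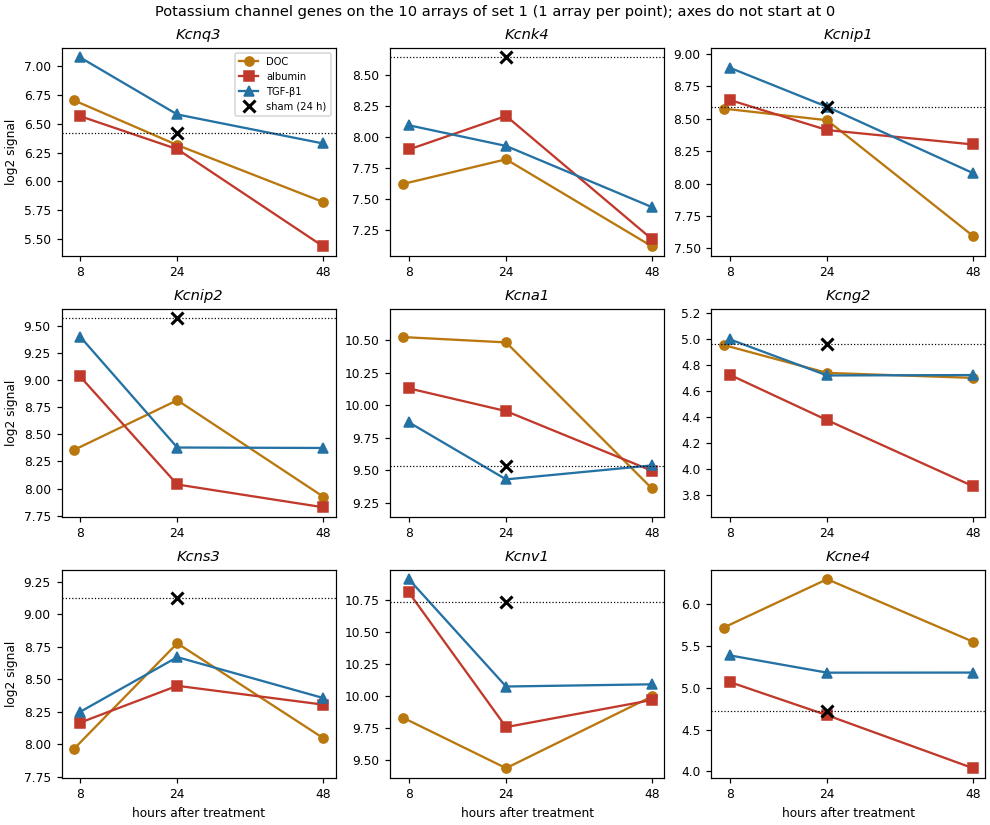
Log2 signal of 9 potassium channel genes by hours after treatment in set 1 (1 array per point; DOC circles, albumin squares, TGF-β1 triangles; the cross and dotted line mark the lone sham). Kcnq3 and Kcnip1 are lower at each later time in each agent, Kcnk4 is lowest at 48 h, and Kcns3 is highest at 24 h in each.

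Between the early time and 48 h, 9 of 41 genes had an unadjusted p under 0.05 and all were lower, beside 8.21% of all genes. Beyond the 3 above, they included the Kv1 pores Kcna1 (−0.71 ± 0.22, adjusted p = 0.129) and Kcna2 (−0.50 ± 0.20, adjusted p = 0.213), which sit beside the node of Ranvier and on axon terminals. The rest were Kcnip2 (−0.89 ± 0.28), Kcnip3 (−0.44 ± 0.18), Kcng2 (−0.46 ± 0.15) and Kcnv1 (−0.50 ± 0.21), with adjusted p from 0.137 to 0.237. Kcna1 read 10.53, 10.49 and 9.36 after DOC, 10.13, 9.96 and 9.50 after albumin, and 9.87, 9.43 and 9.54 after TGF-β1, against 9.54 on the sham. Its late arrays were therefore near the sham and the early ones above it, in contrast to Kcnip2, whose late arrays were the farthest below.

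Between 24 and 48 h none of the 41 passed, beside 1.41% of all genes; 10 (24.4%) were lower without overlap, against 7.78%, and none higher, against 10.8%. The 9 genes with an unadjusted p under 0.05 were all lower, beside 7.27% of all genes. They were Kcnk4, Kcnq3 (−0.53 ± 0.14), the Kir2.2 gene Kcnj12 (−0.60 ± 0.19), the neuronal BK subunit Kcnmb4 (−0.35 ± 0.11), Kcnip1 (−0.50 ± 0.17), Kcns3 (−0.40 ± 0.15), Kcnab1 (−0.76 ± 0.29), the BK pore Kcnma1 (−0.54 ± 0.21) and Kcnd3 (−0.51 ± 0.20). From the early time to 24 h none passed either, beside 0.798% of all genes. Kcnv1 (−0.76 ± 0.21), Kcnq3 (−0.39 ± 0.14) and Kcnip4 (−0.34 ± 0.14) were lower at an unadjusted p under 0.05, beside 6.01% of all genes, and Kcns3 (0.51 ± 0.15) was higher, beside 8.11%, with adjusted p from 0.186 to 0.324. Comparisons of times share arrays with each other, so these counts are not separate evidence.

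Array by array, the 41 genes had medians of −0.012 (DOC), −0.0036 (albumin) and −0.0031 (TGF-β1) relative to the sham at 7 or 8 h. At 24 h they had 0.0032, −0.18 and −0.16, and at 48 h −0.44, −0.41 and −0.25. All genes tested stayed between −0.06 and 0.02 on the same arrays. Microglia and macrophage markers, 12 of 12 tested, were 2.01, 2.38 and 2.20 above sham at 48 h, and between −0.07 and 0.47 at the early time. Meningeal markers, 8 of 10 tested with Slc22a8 and Slc22a6 at background, were 0.32, 1.51 and 1.02 above sham at the early time, −0.34, −0.01 and 1.12 relative to it at 24 h, and 1.16, 2.80 and 2.71 above it at 48 h. The neutrophil and lymphocyte list, 3 of 8 tested, was 0.998, 4.48 and 2.82 above sham at the early time and 1.36, 1.05 and 0.98 above it at 48 h. The 12 neuronal markers had means of −0.39, −0.23 and −0.11 at 48 h, −0.26, −0.01 and −0.20 at 24 h, and −0.20, −0.05 and −0.08 early. At 48 h these means had the same sign as the potassium channel medians and were smaller in size, though a mean and a median are unlike measures. Striatal markers, with 4 of 6 tested and Drd2 and Adora2a at background, were −0.17, 0.78 and 1.38 relative to sham at the early time. At 24 h they were 0.28, −0.02 and −0.07, and at 48 h −0.33, 0.30 and 0.20. The part of these cell types or of dissection in the values at 48 h was not tested.

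Agents were compared over their 3 times. No potassium channel gene passed for albumin against DOC, TGF-β1 against DOC or TGF-β1 against albumin, beside 0.00998%, 0.0299% and 0.0% of all genes; in the last of these 0 of 10019 genes passed, and 877 had an unadjusted p under 0.05. At that level 2, 6 and 4 of the 41 genes differed, beside 7.48%, 20.8% and 8.75% of all genes. Kcne4 was lower after albumin (5.07, 4.67 and 4.04) than after DOC at each time, a difference of −1.26 ± 0.23 with adjusted p = 0.612. TGF-β1 stood between, at 5.39, 5.18 and 5.18, with −0.61 ± 0.23 from DOC and 0.66 ± 0.23 from albumin. Kcnd3 was lower after TGF-β1 (7.26, 7.93 and 7.55) than after DOC (−0.87 ± 0.20, adjusted p = 0.112) and albumin (−0.58 ± 0.20, adjusted p = 0.547), and Kcnq3 was higher (0.38 ± 0.14, adjusted p = 0.195, and 0.57 ± 0.14, adjusted p = 0.492). Kcnh3 (0.90 ± 0.29) and Kcnv1 (0.60 ± 0.21) were higher after TGF-β1 than after DOC. The last of the 6 genes, Kcng3, was tested only because the DOC arrays at 7 and 24 h (4.41 and 4.12) exceeded the floor, and it lay at 2.66 to 3.29 on every other array of set 1, so its lower values after TGF-β1 were a condition of its being tested. Kcng2 was lower after albumin than after DOC (−0.48 ± 0.15) or TGF-β1, where the difference of TGF-β1 from albumin was 0.49 ± 0.15.

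Albumin at 24 h was measured in both sets on separate animals, with 1 array against 1 sham in set 1. Of the 38 genes tested in both, 23 (60.5%) were below sham in both sets, against 34.2% of all genes, and 7 (18.4%) were above in both, against 36.0%. Without albumin replicate 2 of set 2 the numbers were 22, against 32.9% of all genes, and 5, against 35.6%. Kcnc2, Kcnip4, Kcnj9 and Kcnk4 had differences of −0.62, −0.47, −0.40 and −0.47 in set 1 and were also lower in the group means of set 2. For Kcnip4 and Kcnk4 the low mean in set 2 came mostly from albumin replicate 2. Kcnip1, the gene that passed in set 2, was at 8.41 with albumin and 8.59 in sham on these arrays of set 1, a small difference of the same sign with no replicate check.

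Partner proteins of potassium channels were counted from a list of 22 genes that carry no Kcn symbol, such as Dpp6 and Amigo1 (accessory subunits of Kv4 and Kv2), Cntnap2 and Cntn2 (which cluster Kv1 channels beside the node), Lgi1 with Adam22, Dlg4 (PSD-95) and the sulfonylurea receptors Abcc8 and Abcc9. In set 2, 18 were tested, and none rose or fell with albumin (14 lower, median −0.36) or between blockers and albumin (14 higher, median 0.23). Lgi1, a secreted synaptic protein, had −0.40 ± 0.11 with albumin (adjusted p = 0.106) and 0.39 ± 0.09 with blockers against albumin (adjusted p = 0.152), and Dlg4 had −0.45 ± 0.18 (adjusted p = 0.214) and 0.60 ± 0.15 (adjusted p = 0.168). These pairs of values share the albumin arrays. Without albumin replicate 2 the medians of the partners were −0.18 and 0.14. Of 17 tested in set 1, Cntnap2 fell from the early time to 48 h (−0.69 ± 0.12, adjusted p = 0.0247) and Abcc9 rose (1.04 ± 0.18, adjusted p = 0.0254), beside 5.09% of all genes. The endothelial and pericyte list, with 8 of 10 tested and Pdgfrb and Anpep at background, was −0.62, −0.47 and −0.07 relative to sham at the early time for DOC, albumin and TGF-β1, and 0.18, 0.40 and 0.48 at 48 h. Its part in the Abcc9 value was not tested. Abcc9 is the receptor that pairs with the Kcnj8 pore, and Kcnj8 itself was under the floor on all arrays of set 1.

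Probe sets and gene order give a further description. In set 2, 15 genes had more than 1 probe set above the floor, and in 13 all of them lay on the same side of sham with albumin, lower in 10. In set 1, 16 genes had more than 1, and in 14 all were lower at 48 h than early. Kcnc2 and Kcnj3 were the other two, where probe sets differed in sign. In the RefSeq gene order Kcna5, Kcna1 and Kcna6 are neighbours, as are Kcna3 and Kcna2, and Kcnip1 and Kcnmb1. Kcnmb1, a BK subunit of smooth muscle, did not exceed 2.06 on any array, while its neighbour Kcnip1 was among the well-measured genes.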

How the data were processed

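Total RNA of rat somatosensory cortex was measured on 19 Affymetrix arrays, 10 in set 1 and 9 in set 2. Deposited values were on the log2 scale, 1 per probe set. The submitters' processing notes name GCRMA as the method, without a version. It subtracts background estimated from probe sequence, equalises the arrays' distributions and combines the probes of a set, and weak probe sets end on a low plateau. Of 31099 probe sets, 20832 named 1 gene and gave 14218 genes, each read by its brightest probe set on average, and 436 named several genes and were left out.

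Genes above log2 4 on at least 2 arrays of a set entered linear models with moderated variance (lmFit and eBayes of limma 3.58.1, under R 4.3.3). Tests were two-sided, and Benjamini-Hochberg adjusted p-values over all genes tested were held against 0.05. Set 2 was fitted with its 3 groups sharing 1 spread. Set 1 had 1 array per agent and time, so an additive model of agent and time supplied the spread, and the lone sham was assumed to vary like treated arrays. SE is the moderated standard error. The fits were tested on simulated data with changes of 3 on the log2 scale and no outlying array. Those changes are larger than the fitted differences reported here, so that test does not bear on differences of this size. Counts came from Python 3.11.15 with pandas 2.3.3, and plots from matplotlib 3.10.9.

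The genes and lists were chosen with earlier results of these data known. Named for a comparison were genes past the threshold and up to 10 per direction with the smallest p, up to 5 per direction by the weakest of an agent's times, the 10 highest in level, and representatives of each family. Fitted differences are printed for those with an unadjusted p under 0.05, a limit set after values were seen. Alternatives were other filters, the median over probe sets, array centring, trend and robust priors, 2 groups alone, array weights, a replicate block, all 19 arrays with a set term, and leaving out each array.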

Additional observations from a re-analysis of the deposited data

Results flagged for a closer look

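In the group of 4 arrays with albumin and blockers, 4 of the 41 genes tested had 1 array far from the other 3 by Dixon's test. The nominal rate of that test is about 1 group in 20 for values of normal spread. The share among all genes was not counted, so the count is no result about potassium channel genes. For Kcng2 and Kcnh2 the other 3 arrays read nearly alike, which brings the gap close to the whole range (0.98 and 0.99). Kcna1 was low on replicate 1, at 10.18 beside 10.62 to 10.68. Kcng2 was high on replicate 1, at 5.95 beside 5.50 to 5.51, and Kcnh2, the ERG channel, was high on replicate 2, at 7.17 beside 6.46 to 6.47. Kcnj8 was high on replicate 1, at 4.09 beside 3.74 to 3.78, and this is the array that brought it above the floor in that group.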

How the results depend on the processing

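Counts of potassium channel genes past the threshold were small, and some moved with the processing. No gene past the threshold changed direction. For albumin against sham in set 2, the count of 1 became 0 with no filter on low values, with the median over probe sets, with the 2 groups alone and with the replicate number as a block, and 3 with array weights (Kcnip1, Kcnj8 and Kcnk1). Leaving out 1 array gave 0 to 1; the 1, without albumin replicate 2, was Kcnj8 and not Kcnip1. With the replicate block Kcnip1 had −0.87 and adjusted p = 0.135, but same-numbered arrays deviated together in only some pairs (correlations −0.14 to 0.22), so the numbers were not taken to pair them. Over its 17 alternatives Kcnip1 lay between −1.12 and −0.37 (adjusted p 0.0142 to 0.246). Blockers against albumin went from 0 to 2 with array weights (Kcnip1 and Kcnj8). Kcnj8 passed the filter through the albumin arrays and 1 array with blockers. Its direction in albumin against sham and in blockers against albumin is therefore in part a condition of its being tested. DOC against sham went from 0 to 1 with no filter and to 1 with all 19 arrays and a set term, and albumin against sham in set 1 to 1 and 3. The fit with a set term also draws on the arrays of set 2. At 48 h against the early time the count of 2 became 1 with no filter and 0 with the median over probe sets, and 0 to 2 when 1 array was left out. TGF-β1 against DOC gave 0 to 2, the 2 (Kcnd3 and Kcng3) without DOC at 48 h; Kcng3 entered only through the DOC arrays that then remain, which fixes its direction. Over all genes, the alternatives gave 1 to 1003 genes past the threshold for albumin against sham in set 2 (137 as reported), 0 to 333 for blockers against albumin (2), 1 to 526 for DOC against sham (47), 2 to 597 for albumin against sham in set 1 (37), 166 to 620 for 48 h against the early time (510) and 1 to 179 for TGF-β1 against DOC (3). Centring the arrays turned the split of 99 higher and 38 lower for albumin against sham in set 2 into 52 and 37. With no filter all 73 genes entered, most of the added ones at background, and their median was −0.03 for albumin against sham in set 2, −0.0040 for blockers against albumin, and 0.04, 0.02 and 0.02 for DOC, albumin and TGF-β1 in set 1.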
